A study of Homo sapiens with 2 samples.

Results

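The RNA levels of cadherins, vimentin and regulators of the epithelial-mesenchymal transition (EMT) were examined in ACHN cells, an established human renal cell carcinoma line, that carried either an shRNA to KIAA1429 (current symbol VIRMA) or a control shRNA. VIRMA is a scaffold subunit of the complex that writes N6-methyladenosine on mRNA. The genes were taken by symbol from a list of 10, CDH1, CDH2, CDH6, CTNNB1, CTNNA1, CTNND1, TJP1, VIM, SNAI2 and ZEB1, among the 12007 gene symbols in the data. Of the 10 genes, 9 were listed for both libraries and CDH6 was not listed. Lentivirus delivered either an shRNA to KIAA1429 (group shKIAA1429) or a control shRNA (group shNC), and puromycin selected a stable line in each case. The sample labels call the first group a knockout, whereas the study describes an shRNA, and which of its KIAA1429 shRNAs was sequenced is not given in the sources used here. There was 1 library per group, so every difference below lacks a check by replicates and carries no p-value.

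Classical cadherins are transmembrane proteins that join neighbouring cells, and catenins tie their tails to actin. In EMT, epithelial cells typically lose E-cadherin and gain N-cadherin and vimentin, under transcription factors such as SNAI2 and ZEB1, which bind E-box sequences and repress epithelial genes. Renal tubule cells are unusual among epithelial cells in that they often make N-cadherin and cadherin-6 beside keratins. The carcinomas that arise from them often make vimentin as well. The study followed vimentin, N-cadherin and E-cadherin as proteins. After KIAA1429 knockdown it reported higher E-cadherin and lower vimentin and N-cadherin in Caki-1 and ACHN cells. In xenograft tumors of ACHN cells it reported weaker vimentin and stronger E-cadherin staining with knockdown than in controls. The comparison here asks what the mRNAs of these proteins and of their partners did when KIAA1429 was targeted.

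Values were FPKM, a fragment count divided by gene length and library size, so levels can be set side by side between genes. Differences between libraries are given as the log2 change, computed on FPKM + 1 as the shKIAA1429 value over the shNC value, and adding 1 understates the change of low genes. Over the 10702 genes with a mean of at least 1 FPKM, the median log2 change was 0.06. The libraries differed in composition, with 42.2% of the summed FPKM in mitochondrial genes with shNC and 34.6% with shKIAA1429. Rescaling both to equal sums moved the median log2 change of all genes up by 0.18, to 0.24. Rescaled values of single genes below are to be read against this median. When mitochondrial genes were left out of the sums, the median was 0.07. VIRMA was at 3.92 FPKM with shNC and 3.22 FPKM with shKIAA1429, 82.1% of the control level. ACTB and GAPDH were at 84.1% and 80.7% of the control level, and 258 of the 535 genes of like level had a larger absolute log2 change than VIRMA. The VIRMA value in these libraries therefore does not by itself show a knockdown, and shKIAA1429 below names the library as labelled. The study reported lower KIAA1429 mRNA and protein in its stable ACHN and Caki-1 cells, by RT-qPCR and western blot.

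On GRCh37, the build of the positions in the data, CDH1 lies on chromosome 16 from 68771128 to 68869451 on the plus strand and CDH2 on chromosome 18 from 25530930 to 25757410 on the minus strand. VIM lies on chromosome 10 from 17270258 to 17279592 on the plus strand. ZEB1 lies on the same chromosome from 31607424 to 31818742, also on the plus strand. SNAI2 lies on chromosome 8 from 49830327 to 49834299 on the minus strand. CTNNB1 lies on chromosome 3 from 41236328 to 41301587, CTNNA1 on chromosome 5 from 137946656 to 138270723 and CTNND1 on chromosome 11 from 57520715 to 57587018, each on the plus strand. TJP1 lies on chromosome 15 from 29991571 to 30261068 on the minus strand. Among the genes listed in the data, ULK4 overlaps CTNNB1 on the opposite strand, and no listed gene overlaps another member.

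CDH1 encodes E-cadherin, the cadherin of epithelial adherens junctions. It was at 11.6 FPKM with shNC and 8.83 FPKM with shKIAA1429, 76.1% of the control level, for a log2 change of -0.36 that became -0.21 after rescaling to equal sums. Its change was lower than that of most genes of like level: when all genes were divided into 20 bins of mean FPKM, 52 of the 535 genes in the bin of CDH1 had a lower log2 change. In that bin, 158 genes had a larger absolute log2 change. CDH2 encodes N-cadherin, the cadherin of mesenchymal and neural cells. It was at 29.4 FPKM with shNC and 19.3 FPKM with shKIAA1429, 65.8% of the control level, with a log2 change of -0.58 that became -0.42 after rescaling. In its bin of 535 genes, 32 had a lower log2 change and 71 a larger absolute one. Both cadherins were thus lower in the shKIAA1429 library, and CDH2 was the more abundant of the pair in either library. The 76.1% of CDH1 was close to the 80.7% of GAPDH and the 82.1% of VIRMA, whereas CDH2 was further below them. CDH6, cadherin-6 of the developing and adult kidney, has no value here.

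VIM encodes vimentin, the intermediate filament protein of mesenchymal cells, and it stood far above every other member in level. It was at 368 FPKM with shNC, rank 45 among the 12007 symbols, and at 228 FPKM with shKIAA1429, rank 74. The shKIAA1429 level was 61.9% of the control level, a log2 change of -0.69 that became -0.51 after rescaling. Among the 536 genes of the highest expression bin, whose median log2 change was -0.06, 13 had a lower change and 31 a larger absolute one. ACTB and GAPDH fall in the same bin, with log2 changes of -0.25 and -0.31. VIM had the lowest log2 change of the 9 listed members and was at rank 300 from the lowest among all 10702 genes. The lower VIM and CDH2 mRNA had the direction that the study reported for vimentin and N-cadherin protein. CDH1 mRNA was lower too, whereas E-cadherin protein was reported as higher. Protein was not measured in these libraries.

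**Figure D1:**
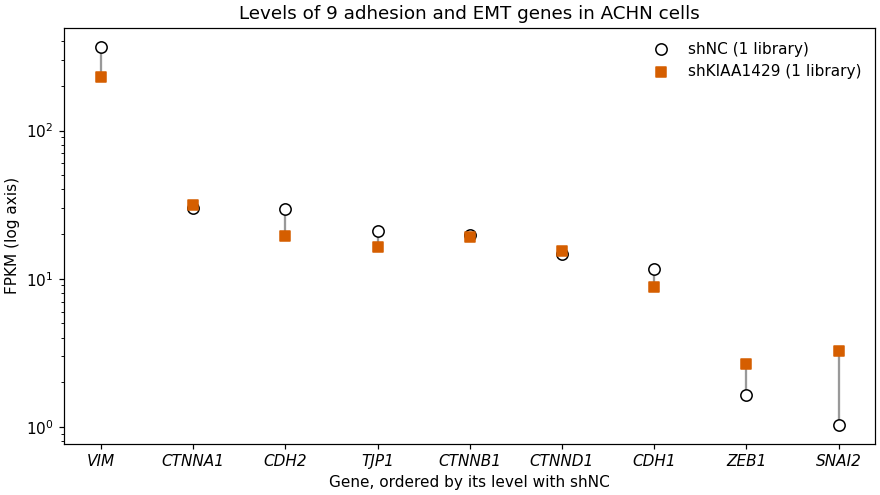
FPKM (log axis) of each listed member in the shNC library (circles) and the shKIAA1429 library (squares), ordered by the shNC level, with 1 library per group and hence no error bars. VIM lay above all others in both libraries, and SNAI2 moved from 1.03 to 3.25 FPKM, past ZEB1.

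The transcription factors were the lowest members in level, and both were higher with shKIAA1429. SNAI2, the zinc finger repressor Slug, was at 1.03 FPKM with shNC and 3.25 FPKM with shKIAA1429, 314% of the control level, for a log2 change of 1.06. This was the highest change among the members and rank 149 from the highest among all genes. In its bin of 535 genes, 4 had a higher log2 change and 9 a larger absolute one. ZEB1, a zinc finger and homeodomain repressor, was at 1.64 FPKM with shNC and 2.64 FPKM with shKIAA1429, 161% of the control level, with a log2 change of 0.46. It shares the bin of SNAI2, in which 57 genes had a higher change than ZEB1 and 102 a larger absolute one. The order of the pair turned around: the ratio of SNAI2 to ZEB1 was 0.629 with shNC and 1.23 with shKIAA1429, a ratio that was formed after the values were seen.

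The size of the SNAI2 difference depended on the scale because its control level was close to the pseudocount. With 0.1 in place of 1 added to each FPKM its log2 change was 1.56, and after rescaling to equal sums it was 1.59, both beyond a limit of 1.5. That limit is the size part of the rule for differentially expressed genes in the study's methods, which also asks for a p-value that 1 library per group cannot give here. ZEB1 moved the same way, to 0.66 and 0.77. Depth is unknown for these libraries, so the counting error at such low levels cannot be given.

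The catenins were nearly level between the libraries. CTNNB1 encodes beta-catenin, which binds the cadherin tail and also acts in Wnt signaling. It was at 19.8 FPKM with shNC and 19.0 FPKM with shKIAA1429, a log2 change of -0.05 that became 0.12 after rescaling to equal sums. CTNNA1 encodes alpha-catenin, the link from beta-catenin to actin. It was at 29.8 and 31.4 FPKM, a log2 change of 0.07. CTNND1 encodes the catenin that holds cadherins at the membrane, and it was at 14.6 and 15.4 FPKM, also a log2 change of 0.07. After rescaling, the log2 changes of CTNNA1 and CTNND1 were 0.26 and 0.25, near the median of 0.24 for all genes. In their bins of 535 genes, 457, 434 and 427 genes had a larger absolute log2 change than CTNNB1, CTNNA1 and CTNND1. TJP1 encodes a scaffold beneath tight junctions that also meets alpha-catenin in young contacts. It was at 20.9 FPKM with shNC and 16.3 FPKM with shKIAA1429, 78.1% of the control level, with a log2 change of -0.34 that became -0.17 after rescaling. In its bin of 535 genes, 50 had a lower change and 150 a larger absolute one. Its percentage of the control level was close to the 80.7% of GAPDH.

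CDH1 and CDH2 together were at 41.0 FPKM with shNC and 28.2 FPKM with shKIAA1429, whereas the 3 catenins together were at 64.3 and 65.9 FPKM. The cadherin sum was 0.638 of the catenin sum with shNC and 0.427 with shKIAA1429. Such a ratio within a library does not depend on how the library was scaled, although this one was formed after the values were seen. The ratio of CDH2 to CDH1, which sets N-cadherin mRNA against E-cadherin mRNA, was 2.53 with shNC and 2.19 with shKIAA1429. The ratio of VIM to CDH1 was 31.7 with shNC and 25.8 with shKIAA1429. Both ratios were lower with shKIAA1429, by factors of 0.864 and 0.814, and N-cadherin mRNA remained above E-cadherin mRNA. How far such ratios differ for other pairs of genes was not examined. With 1 library per group, a cadherin switch or its reversal cannot be read from them.

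Of the 9 listed members, 0 were past 1.5 in either direction, and 0.383% of all genes were above 1.5 and 0.252% below -1.5. At a smaller limit of 0.5, 1 member, SNAI2, was higher, beside 9.9% of all genes, and 2 members, CDH2 and VIM, were lower, beside 6.12% of all genes. The other 6 lay within 0.5. The median log2 change of the 9 members was -0.05, against 0.06 for all genes, and it became 0.12 after rescaling to equal sums, against 0.24 for all genes. All 9 passed the minimum mean of 1 FPKM, while CDH6 was not listed and is in none of these counts.

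**Figure D2:**
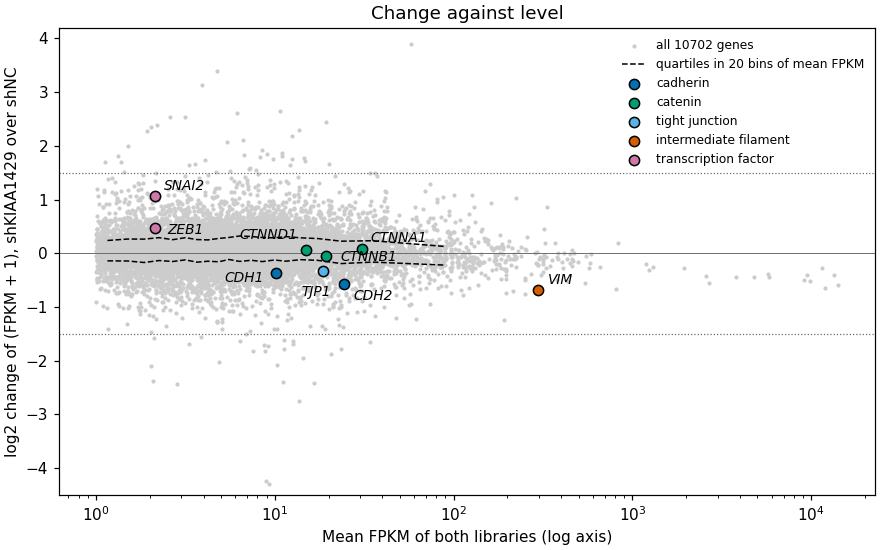
The log2 change of (FPKM + 1), shKIAA1429 over shNC, against the mean FPKM of both libraries (log axis) for all 10702 genes (grey) and the members (coloured by role), with dashed lines at the quartiles in 20 bins of mean FPKM and dotted lines at 1.5 and -1.5. SNAI2 (1.06) and ZEB1 (0.46) lie above the quartiles of genes of like level, CDH1, CDH2, TJP1 and VIM lie below them, and the 3 catenins lie between them.

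The order of levels in the shNC library ran from VIM through CTNNA1, CDH2, TJP1, CTNNB1, CTNND1, CDH1 and ZEB1 to SNAI2. In the shKIAA1429 library CTNNB1 stood above TJP1 and SNAI2 above ZEB1, and the other places were the same. With 1 library per group, neighbours in this order, such as CTNNA1 at 29.8 FPKM and CDH2 at 29.4 FPKM with shNC, could not be separated. The members also differed in gene structure. Their longest coding transcripts in GENCODE 29 ran from 2135 bases for VIM to 7950 bases for TJP1, and the number of annotated coding transcripts from 3 for SNAI2 to 43 for CTNNB1. When the trend of all genes with GC content and transcript length was removed, ZEB1 was at 0.23 in place of 0.46, CTNNB1 at -0.19 in place of -0.05, and the other 7 members moved by less. Annotated overlaps that were not listed in the data include the antisense genes VIM-AS1 and ZEB1-AS1 and the read-through gene TMX2-CTNND1, which shares its strand with CTNND1. Whether the authors' counting used the strand is not given in the sources used here, so reads of such partners could not be told apart from those of the members.

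**Figure D3:**
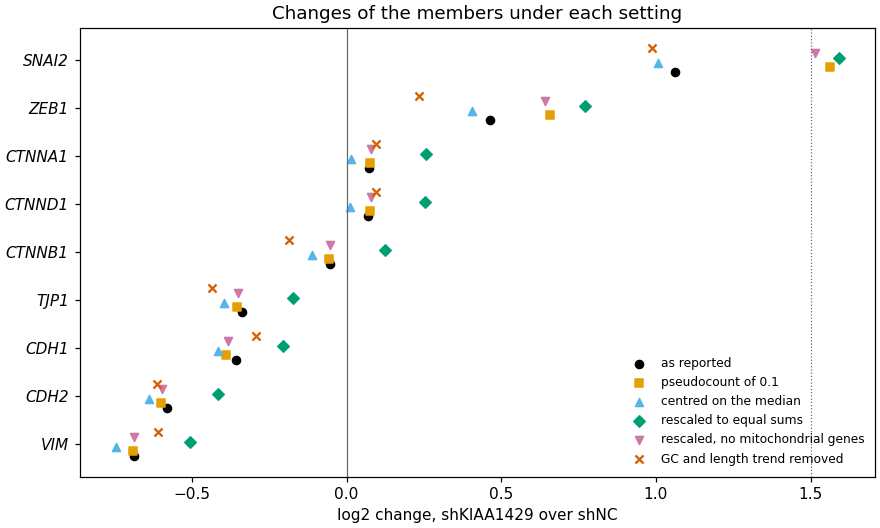
The log2 change of each member as reported (black circles) and under 5 other settings, with a line at 0 and a dotted line at 1.5. VIM, CDH2, CDH1 and TJP1 stayed below 0 and CTNND1, CTNNA1, ZEB1 and SNAI2 above 0 under each setting drawn, CTNNB1 lay on both sides, and SNAI2 reached 1.52 to 1.59 under 3 settings.

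The promoters of members that differed are shown because SNAI2 and ZEB1, which were both higher, recognise the E-box letters CACCTG and, read on the other strand, CAGGTG. The RefSeq promoter table for GRCh38.p14 held 19 windows for 6 of the 10 members, each from 250 bases before to 50 bases after an annotated start. CDH1, CDH6, CTNND1 and SNAI2 were not among them. The letters of the E-box were present in 3 of the 19 windows, and in 20.6% of all 35116 windows of the table. ZEB1 had 7 of the 19 windows and 2 of the 3 with the letters. The 250 bases before the most upstream start are printed here in the direction of the gene, with E-box letters in capitals, for ZEB1 (chr10:31318167-31318416, plus strand) and TJP1 (chr15:29969050-29969299, minus strand), which hold the letters, and for CDH2 (chr18:28177131-28177380, minus strand) and VIM (chr10:17227991-17228240, plus strand), which do not.
ZEB1: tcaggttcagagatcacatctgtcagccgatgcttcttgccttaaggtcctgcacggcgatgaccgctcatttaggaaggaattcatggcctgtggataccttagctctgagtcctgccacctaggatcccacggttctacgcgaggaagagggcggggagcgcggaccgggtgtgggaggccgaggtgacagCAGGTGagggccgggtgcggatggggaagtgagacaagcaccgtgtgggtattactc
TJP1: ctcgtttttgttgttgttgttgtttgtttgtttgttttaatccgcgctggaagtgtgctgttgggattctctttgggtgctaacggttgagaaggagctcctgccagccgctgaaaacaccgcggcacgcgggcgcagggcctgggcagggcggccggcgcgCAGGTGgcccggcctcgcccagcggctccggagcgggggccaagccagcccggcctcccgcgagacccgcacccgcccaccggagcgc
CDH2: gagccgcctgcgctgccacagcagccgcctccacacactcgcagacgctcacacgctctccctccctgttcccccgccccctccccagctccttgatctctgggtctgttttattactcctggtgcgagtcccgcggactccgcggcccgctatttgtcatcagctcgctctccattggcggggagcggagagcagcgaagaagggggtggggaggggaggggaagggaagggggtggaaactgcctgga
VIM: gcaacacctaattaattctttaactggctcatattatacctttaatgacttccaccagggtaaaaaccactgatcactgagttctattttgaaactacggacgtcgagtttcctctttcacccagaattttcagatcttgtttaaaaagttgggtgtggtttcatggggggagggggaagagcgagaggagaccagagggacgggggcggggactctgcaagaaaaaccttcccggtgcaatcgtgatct

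In the ZEB1 window the E-box begins 57 bases before the start, and in the TJP1 window 88 bases before it. A further window of ZEB1 held 3 matches, which was so for 0.635% of all windows. Among the printed windows, only that of CDH2 is marked as opening a transcript. The further window of ZEB1 is so marked too, whereas the windows of TJP1 so marked held no E-box letters. The windows of CDH2 and VIM, the members with the lowest log2 changes, held none, nor did those of CTNNA1 and CTNNB1. A match describes the letters in these windows only and says nothing about binding in these cells.

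Beyond the members, related gene lists were followed by their counts past 0.5 and their medians, to be read against 9.9% of all genes above 0.5, 6.12% below -0.5 and a median of 0.06. Of 44 other cadherin family genes, 14 were listed and 12 had a mean of at least 1 FPKM. Of these 1 was above 0.5 and 2 were below -0.5, with a median log2 change of -0.10 that became 0.06 after rescaling to equal sums. CDH4, retinal cadherin, was at 2.77 FPKM with shNC and 1.48 FPKM with shKIAA1429, a log2 change of -0.61. CDH16, the kidney-specific cadherin, was at 6.61 and 4.29 FPKM, a log2 change of -0.53. At the other end, CDH10 was at 0.302 and 2.25 FPKM, a log2 change of 1.32, and the giant cadherin FAT4 was at 1.47 and 2.02 FPKM. CDH10, the gene counted above 0.5, was below 1 FPKM with shNC. It passed the minimum mean only through its shKIAA1429 level, so this count is partly set by the filter. The other 9 lay within 0.5.

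Of 31 adherens junction partners, 24 had the minimum level, 1 was above 0.5 and 2 were below -0.5, with a median of 0.07. VCL, the actin linker vinculin that alpha-catenin recruits under tension, was at 39.7 FPKM with shNC and 18.1 FPKM with shKIAA1429, a log2 change of -1.09. CTNNBIP1, an inhibitor of beta-catenin, was at 2.91 and 1.45 FPKM, a log2 change of -0.68. NECTIN3, an adhesion molecule of the nectin family, was at 5.98 and 9.57 FPKM, a log2 change of 0.60, and CTNNAL1, a relative of alpha-catenin, was at 35.7 and 50.0 FPKM.

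The 26 tight junction genes with the minimum level, of 40 named, lay on both sides, with 5 above 0.5, 5 below -0.5 and a median of 0.05. CLDN3, a sealing claudin, was at 14.6 FPKM with shNC and 5.96 FPKM with shKIAA1429, a log2 change of -1.17. LSR, a protein of contacts where 3 cells meet, was at 3.56 and 1.18 FPKM, a log2 change of -1.06. Conversely, CLDN16, a claudin of the thick ascending limb of the kidney, was at 111 and 212 FPKM, a log2 change of 0.93, and CLDN15 was at 3.83 and 8.81 FPKM, a log2 change of 1.02. Of 12 desmosome genes, 5 had the minimum level, 1 was above 0.5 and 0 were below -0.5, with a median of 0.00. DSG2, a desmosomal cadherin, was at 17.6 and 31.9 FPKM, a log2 change of 0.82, whereas DSP, the plakin that anchors keratins, was at 9.79 and 6.66 FPKM.

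Among 28 other EMT transcription factors and cofactors, 16 had the minimum level. Of these 1 was above 0.5 and 2 were below -0.5, and the median was 0.10. SOX9, a factor of kidney tubule development and repair, was at 0.573 FPKM with shNC and 2.87 FPKM with shKIAA1429, and was the gene above 0.5. With a shNC level below 1 FPKM, SOX9 passed the minimum mean only through its shKIAA1429 level. The count above 0.5 in this list is therefore partly set by the filter. SOX4 was at 31.6 and 15.2 FPKM, a log2 change of -1.01, and ID2, an inhibitor of helix-loop-helix factors, was at 18.0 and 9.75 FPKM, a log2 change of -0.82. CTBP2, a corepressor that ZEB1 recruits, was at 7.39 and 10.8 FPKM. SNAI1, the nearest relative of SNAI2, was at 0.463 and 0.506 FPKM, below the minimum in both libraries. It is named because it is the close relative of SNAI2 and was chosen after its values were seen.

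Regulators and surface markers of the epithelial state, of which 10 of 23 had the minimum level, were split, with 4 above 0.5, 3 below -0.5 and a median of 0.11. GRHL3, an epidermal factor, was at 0.312 FPKM with shNC and 1.75 FPKM with shKIAA1429, a log2 change of 1.07. GRHL3 also passed the minimum mean only through its shKIAA1429 level. KLF5 was at 7.21 and 13.6 FPKM, a log2 change of 0.83. The membrane protease PRSS8 was at 2.46 and 1.37 FPKM and the polarity protein CRB3 at 9.19 and 5.99 FPKM, each with a log2 change of -0.54.

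Mesenchymal markers lay on both sides of 0, more of them above it. Of 30 genes, 22 had the minimum level, 7 were above 0.5 and 2 were below -0.5, with a median of 0.31, and 17 were above 0 and 5 below it, beside 6131 above and 4571 below 0 among all genes. LOX, which crosslinks collagen, was at 18.4 FPKM with shNC and 40.5 FPKM with shKIAA1429, a log2 change of 1.10, and TNC, the matrix protein tenascin C, was at 2.73 and 6.75 FPKM, a log2 change of 1.06. The lowest were THY1, a surface glycoprotein, at 60.4 and 34.8 FPKM, a log2 change of -0.78, and LGALS1, galectin-1, at 103 and 66.9 FPKM, a log2 change of -0.61. FN1, the matrix protein fibronectin, was at 146 and 301 FPKM, a log2 change of 1.04, and is named as a classical EMT marker after its values were seen. VIM and CDH2, at -0.69 and -0.58, were near these last genes and on the other side of 0 from most of the list. The other intermediate filament genes gave 9 of 14 with the minimum level, 0 past 0.5 in either direction and a median of 0.04. They ran from NEFL, a neurofilament, at 10.6 and 7.42 FPKM (log2 change -0.46), and SYNM, which assembles with vimentin, at 2.99 and 2.35 FPKM, to PLEC, the plakin linker of vimentin, at 15.2 and 15.9 FPKM, and SYNC at 5.91 and 8.33 FPKM.

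**Figure D4:**
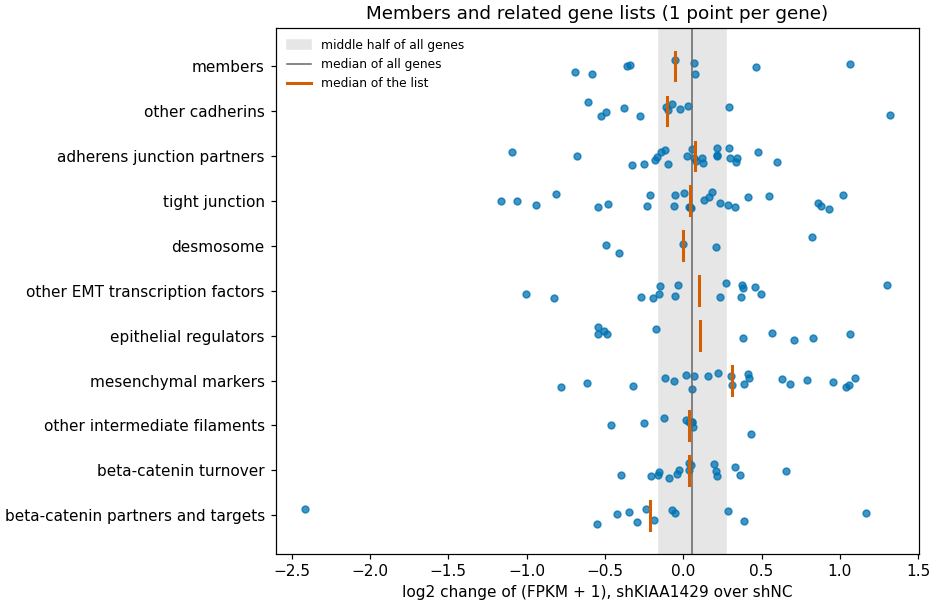
The log2 change of each gene with a mean of at least 1 FPKM (points) for the members and 10 related lists, with list medians (orange bars), the median of all genes (grey line) and the quartile range of all genes (grey band). The mesenchymal markers had the highest median, 0.31, and the beta-catenin partners and targets the lowest, -0.21.

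The destruction and turnover machinery of beta-catenin had a median near that of all genes. Of 18 genes, 16 had the minimum level, 1 was above 0.5 and 0 were below -0.5, with a median of 0.04. WNK1, a kinase, was at 24.8 FPKM with shNC and 39.6 FPKM with shKIAA1429, a log2 change of 0.65, and GSK3B, the kinase that marks beta-catenin for decay, was at 9.61 and 12.6 FPKM. DVL1 was at 14.0 and 10.4 FPKM and FBXW11 at 7.52 and 6.38 FPKM. Among 24 nuclear partners and known targets of beta-catenin, 12 had the minimum level, 1 was above 0.5 and 2 were below -0.5, with a median of -0.21. The highest and lowest genes of this list were both known targets. CCND1, cyclin D1, was at 42.4 and 96.6 FPKM, a log2 change of 1.17, and MYC was at 28.5 and 4.53 FPKM, a log2 change of -2.42. MYC is the main target proposed by the study, which chose it with the help of its RNA-seq. There, KIAA1429 knockdown lowered the level and stability of MYC mRNA and its m6A. A part of beta-catenin in the MYC difference was not tested. TNFRSF19 was at 24.2 and 16.2 FPKM, and CD44, which is in the mesenchymal list too, was at 26.9 and 35.4 FPKM.

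The renal epithelial identity of the cells was visible in both libraries. Of 14 renal epithelial markers, 11 were listed, and PAX8, a factor of the kidney lineage, was at 64.7 FPKM with shNC and 104 FPKM with shKIAA1429, a log2 change of 0.68. KRT7, a simple keratin, was at 5.59 and 8.21 FPKM. LHX1, a factor of the early nephron, was at 4.44 FPKM with shKIAA1429, 40.4% of its level with shNC, a log2 change of -1.14. Of the 10 with the minimum level, 1 was above 0.5, 2 were below -0.5 and 7 lay within. The summed FPKM of the renal list was 648 with shNC and 600.5 with shKIAA1429. KRT19, named because it is the largest part of this sum, was at 292 and 212 FPKM, so the sum mainly follows 1 gene. Of the 10 genes, 4 were higher and 6 lower with shKIAA1429. Of 19 markers of leukocytes, endothelium, fibroblasts and other cell types, 2 were listed, CD68 at 3.87 and 2.06 FPKM and COL1A1 at 1.08 and 1.62 FPKM. PTPRC, PECAM1, VWF and DCN, which define such cells, were not listed, and the summed FPKM of the list was 4.95 with shNC and 3.68 with shKIAA1429. Fewer cells of a kind and less RNA per cell cannot be told apart in such bulk samples.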

How the data were processed

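Poly(A) RNA of 2 libraries, 1 with shKIAA1429 and 1 with shNC, was sequenced in strand-marked libraries. The authors deposited FPKM values per protein-coding gene, and the submitters' processing notes name cutadapt 1.9, HISAT2 2.0.4, StringTie 1.3.4d, DESeq2 and edgeR without their roles. The genome build is not given in the sources used here, and the positions are those of GRCh37. FPKM holds no read counts, so depth and counting error are unknown, and FPKM depends on the composition of each library.

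Every deposited gene reached at least 0.500 FPKM in 1 library or both, so genes that are not listed may be genes below that level. From the 12014 deposited rows, the row with the highest mean was kept for 7 symbols on more than 1 row. A pseudocount of 1 and a minimum mean of 1 FPKM gave 10702 genes, and each gene's rank was taken within 20 bins of mean FPKM. The limit of 1.5 came from the study's methods, whose p-value condition was not applied. Groups followed the sample labels. The members and lists were chosen with earlier results of these data known. Named genes were all members, VIRMA, ACTB, GAPDH and, of each other list, the 2 highest and 2 lowest log2 changes (1 and 1 below 8 genes). GC content and transcript length came from GENCODE 29 for 99.5% of the genes. No test across genes was run. Python 3.11.15, NumPy 2.4.6, pandas 2.3.3 and matplotlib 3.10.9 were used.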

Additional observations from a re-analysis of the deposited data

How the results depend on the processing

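The settings tried were a smaller pseudocount (0.1), log2 changes centred on their median, rescaling to a sum of 1000000 with and without mitochondrial genes, summed rows of a symbol, other filters and limits, and removal of the trend with GC content and length. A value was counted as moved when it differed by more than the spread of log2 changes among genes of like level, 0.258 to 0.316 for the members. Summing rows left every member at its value, and centring moved each by the same -0.06. Neither setting could therefore take a member beyond this spread. Of 54 values for the members, these settings included, 51 stayed within this spread. The other 3 were those of SNAI2, whose log2 change of 1.06 became 1.56 with a pseudocount of 0.1, 1.59 after rescaling and 1.52 after rescaling without mitochondrial genes. The pseudocount is smaller next to the rescaled values by construction. The count of members above 1.5 therefore became 1 in place of 0 under these 3 settings, and it was 1 with a limit of 1. The count past 0.5 in either direction, 3, became 6 with a limit of 0.3. No member was below -1.5 under any setting tried. The ratio of CDH2 to CDH1 with shKIAA1429 over that with shNC, 0.864, was 0.858 with a pseudocount of 1, and that of VIM to CDH1, 0.814, was 0.796. All 30 medians of the 10 related lists stayed within 0.315 of the values given, moving by -0.08 to 0.22. The 46 other genes named by the rule kept their sign under the 5 settings tried for them. Of these settings, a smaller pseudocount cannot alter a sign, and summing rows left the values of these genes as they were. Leaving out a library was not possible with 1 library per group, and unknown depth limits the low values most. No paired analysis was possible because each group holds 1 library.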
